A study of Arabidopsis thaliana with 18 samples.

Results

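The genes described here are 10 members of the SWEET family of sugar carriers in Arabidopsis thaliana: SWEET1, SWEET2, SWEET4 and SWEET11 to SWEET17. They were taken by locus from a table of read counts for 32833 genes, and all 10 were present in it. The family has 17 members in this plant, so 7 were not in the set. RNA sequencing was done on 18 libraries in 6 groups of 3, which form 2 experiments of 9 libraries each that were analysed apart. All plants were of ecotype Col-0 and grew in soil under 10 h light and 14 h dark at 21 °C.

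In the disc experiment, discs cut from mature rosette leaves of plants 4 weeks old were kept overnight in half-strength MS medium with 1% fructose, 1% glucose or 1% mannitol, the last a sugar alcohol that served as the osmotic control. In the leaf experiment, untreated leaves of plants 4 weeks old came from ERDL4 overexpressor 2, ERDL4 overexpressor 1 and wild type. ERDL4 (AT1G19450) encodes a sugar transporter of the vacuolar membrane. The promoter of the overexpression construct is not given in the sources used here, and each line is a single line. Replicates were labelled as biological, without saying whether they came from separate plants or pools, so p-values measure the spread between these samples.

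SWEET proteins are membrane uniporters that let sugars pass down their concentration gradient, without coupling to protons. Some sit in the plasma membrane and release sucrose or hexoses from cells, as SWEET11 and SWEET12 do from phloem parenchyma before the sucrose proton symporter SUC2 loads it into the phloem. Others, among them SWEET2, SWEET16 and SWEET17, sit in the vacuolar membrane and let glucose, fructose or sucrose move between vacuole and cytosol.

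Library totals ranged from 17318810 to 26157641 counts. ERDL4 was measured at 604, 578 and 568 CPM (counts scaled to the library size by TMM) in overexpressor 2 and at 350, 355 and 359 CPM in overexpressor 1, against 124, 111 and 152 CPM in wild type. Every library of both lines was above every wild-type library, as their labels state, and the log2 fold change was 2.18 ± 0.13 in overexpressor 2 (edgeR adjusted p = 5.52e-05) and 1.46 ± 0.13 in overexpressor 1 (adjusted p = 0.000155). Glucose replicate 2 lay apart from its group for several SWEET genes. On the first principal component of all leaf genes, overexpressor 1 replicate 1 (8.92) lay between its group mates (56.4 and 55.9) and wild type, where replicate 2 (-63.9) was the nearest to the lines and the other libraries stood at -95.9 and -101.4. Mesophyll markers (RBCS1A, CAB2, CAB3 and CA1) were detected in every group, whereas flower markers summed to at most 1.43 CPM and seed markers to at most 0.0483 CPM.

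All 10 genes lie on the minus strand of the TAIR10.1 reference. SWEET1 (AT1G21460, chr1:7511750-7513481) overlaps SCL1 (AT1G21450) on the opposite strand. SWEET2 (AT3G14770, chr3:4957334-4959704), SWEET4 (AT3G28007, chr3:10408073-10409977), SWEET11 (AT3G48740, chr3:18052466-18054832) and SWEET16 (AT3G16690, chr3:5684317-5686544) lie on chromosome 3. SWEET12 (AT5G23660, chr5:7971647-7973995), SWEET13 (AT5G50800, chr5:20665068-20667312) and SWEET15 (AT5G13170, chr5:4181042-4183354) lie on chromosome 5, and SWEET14 (AT4G25010, chr4:12854385-12856541) and SWEET17 (AT4G15920, chr4:9030486-9033648) on chromosome 4. SWEET13 has another family member, SWEET10, as its neighbour at a distance of 7066 bases. The coding sequences of SWEET11 and SWEET12 were 80.37% identical, those of SWEET13 and SWEET14 77.25% and those of SWEET16 and SWEET17 64.67%. No stretch of 50 bases from the exons of any of the 10 genes was found elsewhere in the genome.

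SWEET13 and SWEET14 are shown side by side because their upstream sequences share letters while their transcripts were found at very different levels in leaves. The windows below are the 250 bases before each RefSeq gene start in TAIR10.1, on the minus strand, at chr5:20667313-20667562 for SWEET13 and chr4:12856542-12856791 for SWEET14. Capitals mark runs of at least 12 bases that both windows hold.

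SWEET13: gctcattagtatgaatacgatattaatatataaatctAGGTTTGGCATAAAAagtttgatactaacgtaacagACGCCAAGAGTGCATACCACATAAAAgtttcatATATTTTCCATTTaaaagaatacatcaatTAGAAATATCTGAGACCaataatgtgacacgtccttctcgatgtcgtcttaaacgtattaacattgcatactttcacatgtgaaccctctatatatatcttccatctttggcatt

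SWEET14: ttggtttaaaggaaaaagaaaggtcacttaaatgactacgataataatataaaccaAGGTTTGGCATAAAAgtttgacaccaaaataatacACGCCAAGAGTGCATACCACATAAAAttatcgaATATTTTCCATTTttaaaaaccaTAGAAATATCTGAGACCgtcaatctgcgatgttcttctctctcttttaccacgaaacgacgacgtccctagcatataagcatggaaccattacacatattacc

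The SWEET13 and SWEET14 windows share 4 such runs, 71 bases in all, and the longest has 26 bases. Over all 45 pairs of the 10 windows, the longest run in any other pair had 12 bases, and SWEET11 and SWEET12, which have the more similar coding sequences, share no run longer than 9 bases. With these shared letters, SWEET13 held 1014 to 1811 counts per library in the 2 overexpressor lines, where SWEET14 held 0 to 2 counts. In discs SWEET13 was low too, with 9 to 128 counts per library in fructose, 1 to 10 in glucose and 2 to 4 in mannitol. SWEET14 held 0 to 9 counts there.

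The SWEET4 window (chr3:10409978-10410227, minus strand) is shown because it was the only one of the 10 to hold a G-box, and SWEET4 was among the genes with the widest difference between genotypes. Capitals mark exact matches on either strand to the G-box CACGTG, the abscisic acid response core ACGTG, which overlaps the G-box, the sugar repression element TTATCC and the W-box TTGAC.

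SWEET4: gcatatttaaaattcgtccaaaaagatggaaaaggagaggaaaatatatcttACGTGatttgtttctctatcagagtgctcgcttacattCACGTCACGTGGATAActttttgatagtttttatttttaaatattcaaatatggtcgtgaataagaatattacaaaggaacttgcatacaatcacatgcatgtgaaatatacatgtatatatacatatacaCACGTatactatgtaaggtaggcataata

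The SWEET4 window held 1 match to CACGTG, 5 to ACGTG and 1 to TTATCC. Among the 10 windows, CACGTG was in 1, ACGTG in 3, TTATCC in 1 and TTGAC in 5. Of 27443 gene windows of the same length in the genome, 6.49% held CACGTG, 22.9% ACGTG, 12.5% TTATCC and 44.9% TTGAC. A match describes letters only, and binding by any factor was not measured.

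Levels of different genes were compared as CPM per kilobase of exon. In mannitol discs SWEET11 made up 50.4% of the summed level of the 10 genes (mean of 3 libraries), SWEET12 20.2%, SWEET17 10.3% and SWEET2 10.2%. In glucose discs SWEET11 (36.4%) and SWEET17 (29.9%) led, and their ranges over the libraries overlapped. In fructose discs SWEET17 (25.5%), SWEET15 (24.2%), SWEET1 (18.4%) and SWEET11 (15.8%) made up most of the sum. The ranges of SWEET15 and SWEET17 overlapped, as did those of SWEET1 and SWEET11, whereas SWEET17 was above SWEET1 in every fructose library.

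In leaves SWEET11 and SWEET17 were the most abundant of the 10 in wild type, at 40.4% and 31.4% of the sum, and their ranges did not overlap. Overexpressor 2 had 5 genes between 14.3% and 23.8%: SWEET11, SWEET17, SWEET15, SWEET13 and SWEET12. The same 5 genes led in overexpressor 1, with SWEET15 at 19.2% on average but at only 3.37% in replicate 1. SWEET15 held 0.316% of the sum in wild type. SWEET14 was last in the order in every group but fructose and glucose, where SWEET16 was.

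The summed level was 391, 320 and 328 CPM per kilobase in overexpressor 2 and 239, 455 and 446 in overexpressor 1, against 144, 140 and 145 in wild type. Every overexpressor library was thus above every wild-type library. In discs the sum was 126, 109 and 157 CPM per kilobase in fructose and 86.7, 109 and 93.0 in glucose, against 124, 139 and 136 in mannitol. The glucose libraries all lay below the mannitol libraries, and the fructose libraries overlapped mannitol. Fructose and glucose met only at replicate 2 of each, at 108.56 and 108.57 CPM per kilobase, and the other fructose libraries were above every glucose library.

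**Figure D1:**
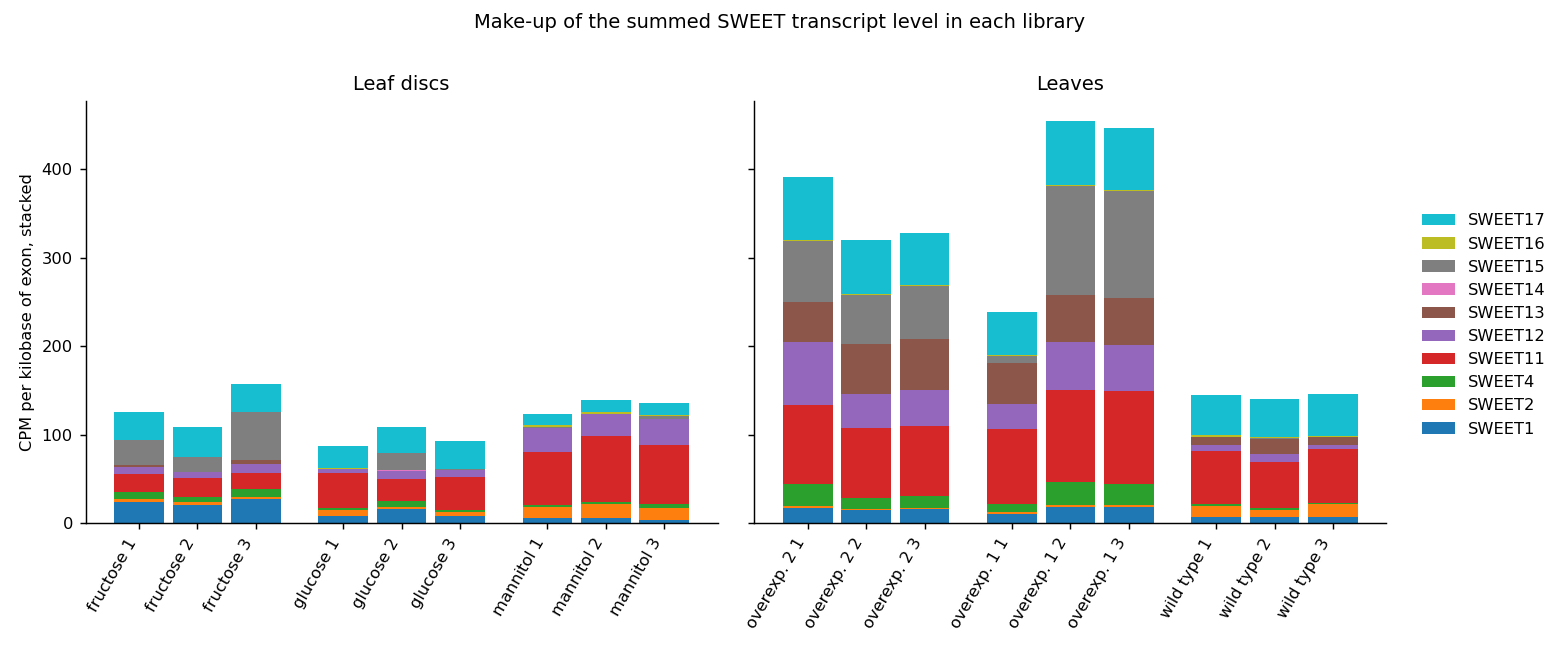
Summed level of the 10 SWEET genes in each library as CPM per kilobase of exon, stacked by gene, for discs (left panel; fructose, glucose, mannitol) and leaves (right panel; overexpressor 2, overexpressor 1, wild type). SWEET11 is the widest band in mannitol and wild type, and SWEET12, SWEET13 and SWEET15 widen in the overexpressor lines, SWEET15 least in overexpressor 1 replicate 1.

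In discs, fructose and glucose moved the family in both directions relative to mannitol: SWEET1 and SWEET17 were higher in both sugars, and SWEET2, SWEET11, SWEET12 and SWEET16 were lower in both. Of the 8 members that passed the filter on low counts, fructose had 4 called higher and 4 called lower relative to mannitol (edgeR quasi-likelihood test, Benjamini-Hochberg adjusted p under 0.05 over 18784 genes). Among all genes tested 66.1% were called in this comparison, 36.6% higher and 29.5% lower, so calls were common; 55.3% of the calls were higher, against 68.2% with scaling by library size alone. In glucose 2 members were called higher and 4 lower than in mannitol, where 74% of all genes were called (38.5% higher, 35.5% lower). SWEET16, among those called lower in both sugars, passed the filter through its mannitol libraries alone. The median log2 fold change of the 8 members was -0.24 in fructose and -0.36 in glucose, against 0.09 and 0.03 over all genes. No member lay near these medians, which fall between SWEET4 (1.19) and SWEET12 (-1.68) in fructose. In glucose the gap was between SWEET4 (0.25) and SWEET11 (-0.98). Both comparisons share the mannitol libraries. Fold changes below are log2 with an approximate SE worked back from the test statistic (the size of the fold change divided by the root of F).

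**Figure D2:**
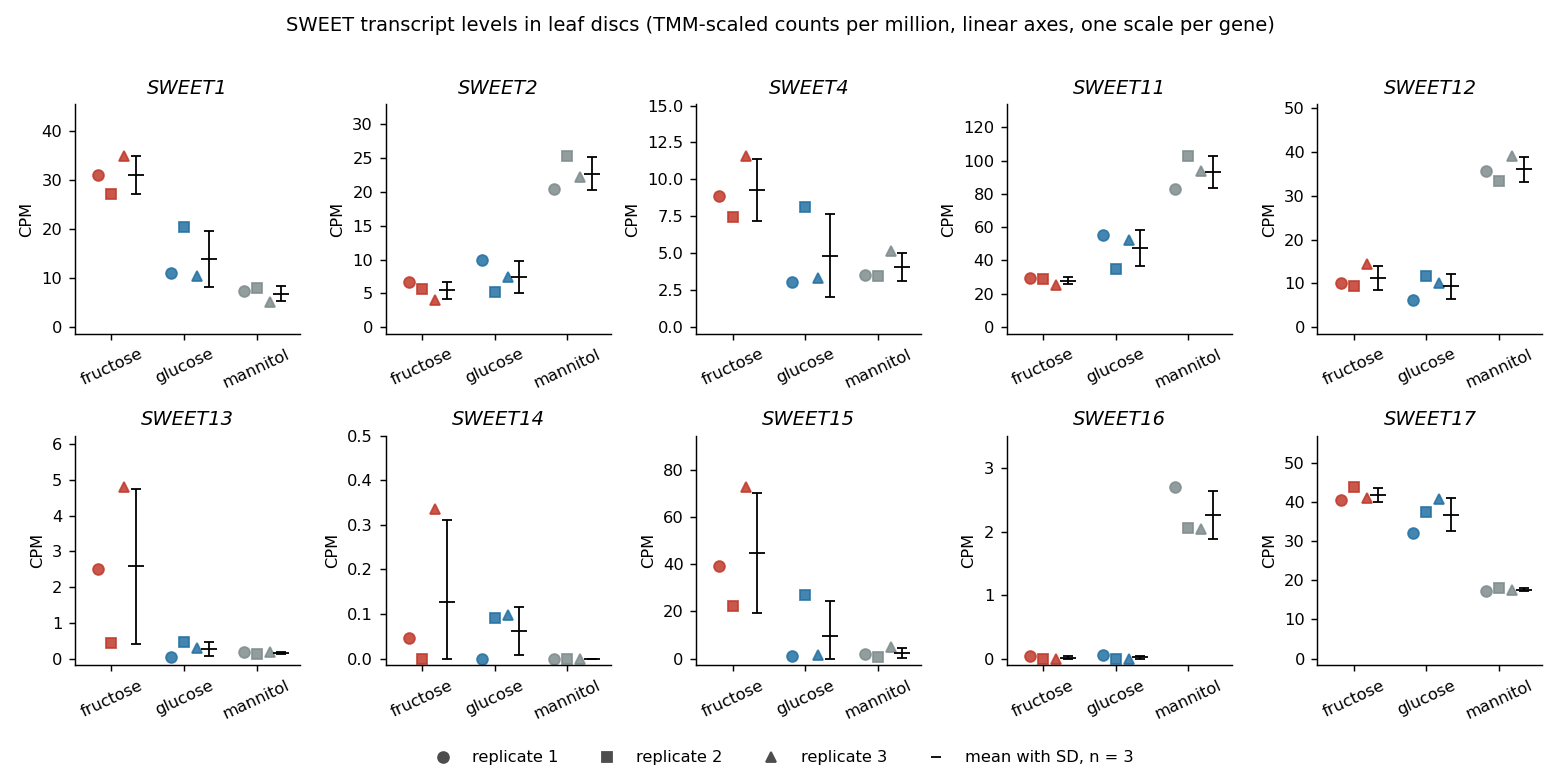
CPM of each SWEET gene in the 9 disc libraries (points; shape marks the replicate number) with the mean and SD of 3 libraries, for fructose, glucose and mannitol; each panel has its own linear axis. SWEET1 and SWEET17 are lowest in mannitol, SWEET2, SWEET11, SWEET12 and SWEET16 highest there, and glucose replicate 2 stands above its group for SWEET1, SWEET4 and SWEET15.

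SWEET1, a glucose uniporter of the plasma membrane, had 31.1, 27.2 and 35.0 CPM in fructose and 11.0, 20.5 and 10.4 CPM in glucose, against 7.34, 7.997 and 5.06 CPM in mannitol. No group overlapped another. It rose by 2.20 ± 0.28 in fructose (edgeR adjusted p = 9.56e-05) and by 1.04 ± 0.28 in glucose (adjusted p = 0.00726). In fructose discs it was also higher than in glucose discs, by 1.16 ± 0.27 (adjusted p = 0.00719). SCL1, on the other strand of the same stretch, had 31.8 to 46.0 CPM in fructose and 60.6 to 64.3 CPM in glucose, against 61.8 to 68.0 CPM in mannitol. The libraries were directional, but the strand setting of the counting is not given in the sources used here. Reads of the 2 genes may thus be mixed in their overlap.

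SWEET4, a hexose carrier expressed along veins, had 8.85, 7.47 and 11.6 CPM in fructose and 3.07, 8.11 and 3.34 CPM in glucose, against 3.56, 3.48 and 5.15 CPM in mannitol. The fructose libraries were all above the mannitol libraries, and glucose overlapped both groups through its replicate 2. The gene rose by 1.19 ± 0.37 in fructose (edgeR adjusted p = 0.0168), but the call was lost without mannitol replicate 1 (adjusted p = 0.059), mannitol replicate 2 (0.0601) or fructose replicate 3 (0.0563). In glucose SWEET4 differed from mannitol by 0.25 ± 0.37 (edgeR adjusted p = 0.56), a value that ran from -0.35 to 0.46 over the alternative settings. Between fructose and glucose the difference was 0.94 ± 0.36 (adjusted p = 0.0551) with all libraries and 1.54 ± 0.26 (adjusted p = 0.00153) without glucose replicate 2. With all libraries, DESeq2 gave 0.89 (adjusted p = 0.0318) and limma-voom 1.06 (adjusted p = 0.0219).

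The phloem parenchyma sucrose exporters SWEET11 and SWEET12 were both lower in the 2 sugars. SWEET11 had 29.3, 28.6 and 25.4 CPM in fructose and 55.0, 35.0 and 52.0 CPM in glucose, against 83.1, 103 and 93.5 CPM in mannitol. The 3 groups did not overlap, with fructose lowest and mannitol highest. SWEET11 fell in both sugars, with a log2 fold change of -1.75 ± 0.16 in fructose (edgeR adjusted p = 7.26e-06) and of -0.98 ± 0.16 in glucose (adjusted p = 0.000282), and its log2 fold change of fructose over glucose was -0.77 ± 0.16 (adjusted p = 0.00431).

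SWEET12 had 10.0, 9.27 and 14.4 CPM in fructose and 6.20, 11.7 and 10.2 CPM in glucose, against 35.7, 33.4 and 39.2 CPM in mannitol. Every sugar library was below every mannitol library, and the 2 sugars overlapped. SWEET12 fell in both, with -1.68 ± 0.23 in fructose (edgeR adjusted p = 0.000134) and -1.95 ± 0.24 in glucose (adjusted p = 3.90e-05). The difference between fructose and glucose was 0.27, with an approximate 95% interval of -0.26 to 0.79 (adjusted p = 0.366).

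SWEET11 and SWEET12 fell beside a list of 5 phloem companion cell markers, of which 0 were higher and 4 lower in fructose and 0 higher and 5 lower in glucose. Over all genes 36.6% were called higher and 29.5% lower in fructose, and 38.5% higher and 35.5% lower in glucose. The 5 markers summed to 271 to 375 CPM in fructose and 220 to 277 CPM in glucose, against 484 to 773 CPM in mannitol, and none of the 5 was at 0 in any group. SUC2, the companion cell symporter that takes up the exported sucrose, changed by -1.04 ± 0.21 in fructose (edgeR adjusted p = 0.00148) and by -1.53 ± 0.21 in glucose (adjusted p = 0.000106). Of the 4 mesophyll markers 3 were lower in fructose and 4 in glucose, with sums of 3116 to 5694 CPM in fructose and 171 to 956 CPM in glucose, against 11160.2 to 19521 CPM in mannitol. Of 3 epidermis markers 2 were lower in fructose and 3 in glucose, with sums of 135 to 174 CPM in fructose and 72.2 to 101.3 CPM in glucose, against 251 to 325 CPM in mannitol. Of 5 guard cell markers 1 was higher and 1 lower in fructose, and 1 higher and 2 lower in glucose, with sums of 92.6 to 97.8 CPM in fructose and 63.1 to 88.6 CPM in glucose, against 36.5 to 44.7 CPM in mannitol. In bulk RNA, fewer cells of a type and less RNA per cell cannot be told apart, and the part of cell make-up in these differences was not tested.

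SWEET15, a sucrose carrier also known as SAG29 for its rise in senescing leaves, was the most variable member. It had 39.2, 22.5 and 72.8 CPM in fructose and 0.871, 26.9 and 1.35 CPM in glucose, against 1.89, 0.743 and 4.70 CPM in mannitol. Fructose lay above mannitol in every library, while glucose replicate 2 lay within the fructose range and the other glucose libraries within the mannitol range. SWEET15 rose by 4.15 ± 1.29 in fructose (edgeR adjusted p = 0.0203), a call lost without mannitol replicate 1 (adjusted p = 0.0658), mannitol replicate 2 (0.0685) or fructose replicate 3 (0.0693) and when no filter on low counts was used (0.0522).

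In glucose SWEET15 differed from mannitol by 1.95 ± 1.27 (edgeR adjusted p = 0.194). The sign of this value was not stable, as it ran from -1.175 to 2.885 over the alternative settings, none of which called it. Fructose exceeded glucose by 2.20 ± 1.13 (adjusted p = 0.137) with all libraries and by 5.32 ± 0.81 (adjusted p = 0.00134) without glucose replicate 2. With all libraries, limma-voom gave 3.57 (adjusted p = 0.0144) and DESeq2 2.17 (adjusted p = 0.144). That library also had the highest mesophyll marker sum of its group, 956 CPM, while the lowest in the group was 171 CPM. Of 10 senescence genes, which did not include SWEET15, 9 were tested: 1 was higher and 5 were lower in fructose, and 0 were higher and 8 lower in glucose, each against mannitol. Over all genes 36.6% were higher and 29.5% lower in fructose, and 38.5% higher and 35.5% lower in glucose.

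SWEET13 and SWEET14, carriers known from anthers that also move gibberellin, did not pass the filter in discs and are given as counts. SWEET13 had 54, 9 and 128 counts in fructose and 1, 10 and 6 counts in glucose, against 3, 2 and 4 counts in mannitol. Each fructose library was above every mannitol library, but fructose replicate 2 lay within the glucose range. Per effective library size, the summed counts gave a ratio of 17.6 between fructose and mannitol (exact 95% counting interval 9.06 to 39.0) and of 10.2 between fructose and glucose (6.18 to 17.8), intervals that cover counting error only. SWEET14 had 1, 0 and 9 counts in fructose and 0, 2 and 2 counts in glucose, against 0, 0 and 0 in mannitol.

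Of the 3 carriers of the vacuolar membrane, SWEET17 was higher in both sugars, and SWEET2 and SWEET16 were lower in both. SWEET17, a fructose carrier, had 40.5, 43.8 and 41.0 CPM in fructose and 32.2, 37.6 and 40.7 CPM in glucose, against 17.3, 17.99 and 17.5 CPM in mannitol. Both sugar groups were above mannitol in every library with little spread, and the fructose libraries overlapped glucose only at its upper end. SWEET17 rose by 1.25 ± 0.10 in fructose (edgeR adjusted p = 2.43e-06) and by 1.07 ± 0.10 in glucose (adjusted p = 4.85e-06). Fructose and glucose differed by 0.18, with an approximate 95% interval of -0.04 to 0.40 (adjusted p = 0.146).

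SWEET2, a vacuolar glucose carrier best known from roots, had 6.62, 5.58 and 4.04 CPM in fructose and 9.89, 5.16 and 7.35 CPM in glucose, against 20.5, 25.4 and 22.2 CPM in mannitol. Mannitol was above both sugars in every library, and the sugars overlapped. The gene fell in both sugars, with a log2 fold change of -2.07 ± 0.24 in fructose (edgeR adjusted p = 3.97e-05) and of -1.61 ± 0.24 in glucose (adjusted p = 0.00015). Between the sugars the difference was -0.47 (approximate 95% interval -1.02 to 0.08, adjusted p = 0.14), and -0.68 ± 0.22 (adjusted p = 0.0285) without glucose replicate 2.

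SWEET16, which carries glucose, fructose and sucrose, had 1, 0 and 0 counts in fructose and 1, 0 and 0 counts in glucose, against 47, 36 and 45 counts in mannitol. It was thus nearly undetected in both sugars. The ratio of summed counts per effective library size between mannitol and fructose was 154.6 (exact 95% counting interval 27.3 to 6155), and that between mannitol and glucose was 139.7 (24.6 to 5561). Its adjusted p-values were 1.21e-05 in fructose and 9.87e-06 in glucose (edgeR), but it passed the filter on low counts through its mannitol libraries alone. With no filter the edgeR adjusted p-values were 4.93e-06 in fructose and 4.28e-06 in glucose. By their counts, SWEET16 and SWEET17, the pair with 64.67% identical coding sequences, lay on opposite sides of mannitol in every sugar library.

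Between fructose and glucose 1 of the 8 tested members was called higher (SWEET1) and 1 lower (SWEET11), where 49.3% of all genes were called, 24.7% higher and 24.6% lower. SWEET16, with 1 count in all of fructose and 1 in all of glucose, could not show a difference here. The median log2 fold change of the 8 was 0.22, against 0.01 over all genes. ERDL4, the gene overexpressed in the leaf experiment, had 38.3, 37.4 and 33.9 CPM in fructose and 20.3, 23.8 and 27.1 CPM in glucose, against 47.7, 45.8 and 37.3 CPM in mannitol. Its log2 fold change was -0.26 ± 0.13 in fructose (edgeR adjusted p = 0.103) and -0.88 ± 0.13 in glucose (adjusted p = 0.000136), each against mannitol, and 0.62 ± 0.13 in fructose over glucose (adjusted p = 0.00418). SUC2 differed between fructose and glucose by 0.48 ± 0.21 (adjusted p = 0.0779).

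In leaves, both overexpressor lines had more SWEET transcript than wild type for most members: SWEET1, SWEET4, SWEET11, SWEET12, SWEET13, SWEET15 and SWEET17 were higher in both lines, and SWEET2 was lower in both. Of the 9 members tested, 7 were called higher and 1 lower in overexpressor 2 than in wild type (edgeR, adjusted p under 0.05 over 18703 genes), where 42.1% of all genes were called, 20.6% higher and 21.5% lower. In overexpressor 1 the counts were also 7 higher and 1 lower, against 43.8% of all genes called, 21.5% higher and 22.3% lower. The median log2 fold change of the 9 was 1.19 in overexpressor 2 and 1.17 in overexpressor 1, against 0.02 and 0.01 over all genes. The 2 comparisons share the wild-type libraries. Of all calls 49% were higher in each line, against 74.4% in overexpressor 2 and 68.7% in overexpressor 1 with scaling by library size alone, which turned no called SWEET value round.

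**Figure D3:**
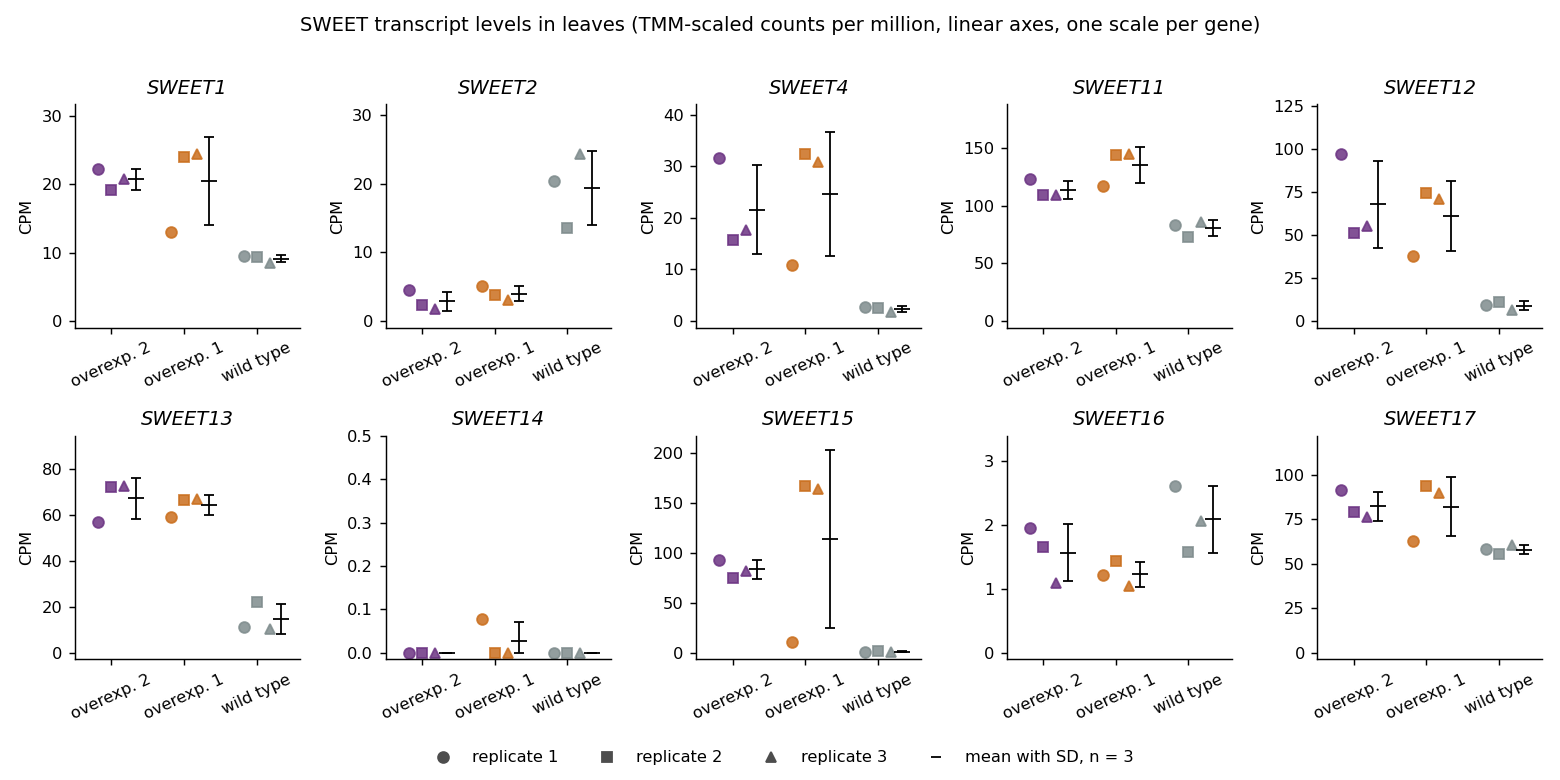
CPM of each SWEET gene in the 9 leaf libraries (points; shape marks the replicate number) with the mean and SD of 3 libraries, for overexpressor 2, overexpressor 1 and wild type; each panel has its own linear axis. Both lines lie above wild type for SWEET1, SWEET4, SWEET11, SWEET12, SWEET13, SWEET15 and SWEET17 and below it for SWEET2, and overexpressor 1 replicate 1 is the lowest of its group for SWEET4, SWEET12 and SWEET15.

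SWEET15 had the widest difference of the members. It had 92.9, 74.7 and 81.8 CPM in overexpressor 2 and 10.9, 167 and 164 CPM in overexpressor 1, against 0.564, 1.11 and 0.148 CPM in wild type. Every line library was above every wild-type library, although overexpressor 1 replicate 1 was far below its group mates. SWEET15 rose by 7.11 ± 1.14 in overexpressor 2 (edgeR adjusted p = 0.00176) and by 7.56 ± 1.14 in overexpressor 1 (adjusted p = 0.00125). Wild type held only 11, 21 and 3 counts, so the gene passed the filter on low counts through the overexpressor libraries. With no filter the edgeR adjusted p-values were 0.00696 in overexpressor 2 and 0.00504 in overexpressor 1. Of the 9 senescence genes tested beside it, 3 were higher and 3 lower in overexpressor 2, and 4 were higher and 2 lower in overexpressor 1. Over all genes 20.6% were higher and 21.5% lower in overexpressor 2, and 21.5% higher and 22.3% lower in overexpressor 1. Among those called, NYE2 was higher by 2.48 ± 0.31 in overexpressor 2 (edgeR adjusted p = 0.000396) and by 2.68 ± 0.30 in overexpressor 1 (adjusted p = 0.000329). PAO was also higher, by 0.52 ± 0.16 in overexpressor 2 (edgeR adjusted p = 0.0259) and by 1.24 ± 0.16 in overexpressor 1 (adjusted p = 0.000472). SAG101 was lower, with -0.85 ± 0.14 in overexpressor 2 (adjusted p = 0.00135) and -0.54 ± 0.14 in overexpressor 1 (adjusted p = 0.011). SAG12, the classical marker of advanced leaf senescence, was at 0 counts in every leaf library, wild type included, and was not tested.

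The hexose carriers SWEET1 and SWEET4 were higher in both lines. SWEET4 had 31.5, 15.7 and 17.6 CPM in overexpressor 2 and 10.8, 32.3 and 30.9 CPM in overexpressor 1, against 2.77, 2.53 and 1.73 CPM in wild type. The lines did not overlap wild type, and each line had a single library that differed from its other two. SWEET4 rose by 3.20 ± 0.49 in overexpressor 2 (edgeR adjusted p = 0.0013) and by 3.40 ± 0.48 in overexpressor 1 (adjusted p = 0.000889).

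SWEET1 had 22.3, 19.1 and 20.7 CPM in overexpressor 2 and 13.0, 24.0 and 24.3 CPM in overexpressor 1, against 9.44, 9.32 and 8.48 CPM in wild type. All line libraries were above wild type. SWEET1 rose by 1.19 ± 0.21 in overexpressor 2 (edgeR adjusted p = 0.00209) and by 1.17 ± 0.21 in overexpressor 1 (adjusted p = 0.00196). SCL1, which it overlaps, had 33.3 to 35.3 CPM in overexpressor 2 and 37.4 to 39.3 CPM in overexpressor 1, against 28.9 to 33.7 CPM in wild type.

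Among the sucrose exporters, SWEET12 differed more between genotypes than SWEET11. SWEET12 had 96.9, 51.3 and 55.4 CPM in overexpressor 2 and 37.8, 74.3 and 71.2 CPM in overexpressor 1, against 9.33, 11.1 and 6.21 CPM in wild type. The lines did not overlap wild type. SWEET12 rose by 2.93 ± 0.36 in overexpressor 2 (edgeR adjusted p = 0.000531) and by 2.78 ± 0.36 in overexpressor 1 (adjusted p = 0.000587).

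SWEET11 had 123, 109 and 109 CPM in overexpressor 2 and 117, 144 and 144 CPM in overexpressor 1, against 82.9, 72.5 and 85.6 CPM in wild type. Here too every line library was above wild type, by a smaller step. The log2 fold change was 0.50 ± 0.12 in overexpressor 2 (edgeR adjusted p = 0.00799) and 0.75 ± 0.12 in overexpressor 1 (adjusted p = 0.000983). The approximate 95% intervals of SWEET12 (2.12 to 3.75 and 1.97 to 3.60) and SWEET11 (0.24 to 0.77 and 0.48 to 1.02) did not overlap in either line, and the difference between the 2 genes was not tested as such.

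Beside SWEET11 and SWEET12 in leaves, 1 of 5 phloem companion cell markers was called higher and 0 lower in overexpressor 2, and 2 higher and 0 lower in overexpressor 1. The shares over all genes were 20.6% higher and 21.5% lower in overexpressor 2, and 21.5% higher and 22.3% lower in overexpressor 1. The 5 markers summed to 1029 to 1046 CPM in overexpressor 2 and 1250 to 1273 CPM in overexpressor 1, against 931 to 993 CPM in wild type, with none of the 5 at 0. SUC2 itself differed from wild type by 0.10 ± 0.11 in overexpressor 2 (edgeR adjusted p = 0.451) and by 0.52 ± 0.11 in overexpressor 1 (adjusted p = 0.00335). All 4 mesophyll markers were lower in both lines, with sums of 13059 to 13492 CPM in overexpressor 2 and 11515 to 17157 CPM in overexpressor 1, against 29889 to 49147 CPM in wild type. Of 5 guard cell markers 0 were higher and 2 lower in overexpressor 2, and 1 was higher and 2 lower in overexpressor 1. Guard cell sums were 41.0 to 42.5 CPM in overexpressor 2 and 48.9 to 62.1 CPM in overexpressor 1, against 64.8 to 82.0 CPM in wild type. Of 3 epidermis markers 2 were lower in overexpressor 2 and 1 in overexpressor 1, with sums of 168 to 178 CPM in overexpressor 2 and 205 to 236 CPM in overexpressor 1, against 245 to 282 CPM in wild type. Their part in the SWEET differences was not tested.

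SWEET13 had 56.8, 72.1 and 72.6 CPM in overexpressor 2 and 59.2, 66.5 and 66.9 CPM in overexpressor 1, against 11.3, 21.9 and 10.5 CPM in wild type. The lines were close to each other and above wild type in every library, with wild-type replicate 2 the highest of its group. SWEET13 rose by 2.21 ± 0.26 in overexpressor 2 (edgeR adjusted p = 0.000339) and by 2.14 ± 0.26 in overexpressor 1 (adjusted p = 0.000385). SWEET14, whose upstream window shares 71 bases in long runs with that of SWEET13, had 0, 0 and 0 counts in overexpressor 2 and 2, 0 and 0 counts in overexpressor 1, against 0, 0 and 0 in wild type, and no difference was detectable at this depth.

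Of the vacuolar carriers, SWEET17 was higher and SWEET2 lower in both lines, and SWEET16 was not called in either. SWEET17 had 91.7, 79.1 and 76.0 CPM in overexpressor 2 and 62.9, 93.7 and 89.5 CPM in overexpressor 1, against 58.1, 55.4 and 60.4 CPM in wild type. The lines lay above wild type in every library, narrowly for overexpressor 1 replicate 1. SWEET17 rose by 0.50 ± 0.15 in overexpressor 2 (edgeR adjusted p = 0.022) and by 0.50 ± 0.15 in overexpressor 1 (adjusted p = 0.0218). The call was lost in overexpressor 2 without its replicate 1 (adjusted p = 0.065), and in overexpressor 1 without its replicate 2 (0.0946) or replicate 3 (0.0834).

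SWEET2 had 4.48, 2.33 and 1.82 CPM in overexpressor 2 and 5.14, 3.82 and 3.04 CPM in overexpressor 1, against 20.4, 13.5 and 24.3 CPM in wild type. All line libraries were below wild type, where replicate 2 was the lowest. SWEET2 fell in both lines, with a log2 fold change of -2.76 ± 0.35 in overexpressor 2 (edgeR adjusted p = 0.000485) and of -2.28 ± 0.33 in overexpressor 1 (adjusted p = 0.000785).

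SWEET16 had 1.96, 1.66 and 1.09 CPM in overexpressor 2 and 1.22, 1.43 and 1.04 CPM in overexpressor 1, against 2.62, 1.58 and 2.07 CPM in wild type. Overexpressor 1 lay below wild type in every library, and overexpressor 2 overlapped it. The log2 fold changes were -0.41 ± 0.30 in overexpressor 2 (edgeR adjusted p = 0.287) and -0.76 ± 0.30 in overexpressor 1 (adjusted p = 0.0609), and overexpressor 1 passed the threshold without wild-type replicate 2 (-0.90 ± 0.31, adjusted p = 0.0378).

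Overexpressor 2 and overexpressor 1 were not called different for any of the 9 tested members (edgeR, adjusted p of 0.367 to 0.993), and the lowest unadjusted p was 0.0623 for SWEET11. In this comparison 0.0535% of all genes were called, 0.0321% higher and 0.0214% lower. Log2 fold changes of overexpressor 2 over overexpressor 1 lay between -0.48 for SWEET2 and 0.35 for SWEET16, with SWEET11 at -0.25, SWEET4 at -0.19, SWEET1 at 0.02, SWEET13 at 0.07 and SWEET12 at 0.15. For SWEET15 (-0.45) the interval was wide, -2.20 to 1.29, and for SWEET17 it was -0.33 to 0.34. ERDL4 itself had a log2 fold change of 0.72 ± 0.13 between the lines, with an edgeR adjusted p of 0.0782. SUC2 differed by -0.41 ± 0.11 (adjusted p = 0.121).

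**Figure D4:**
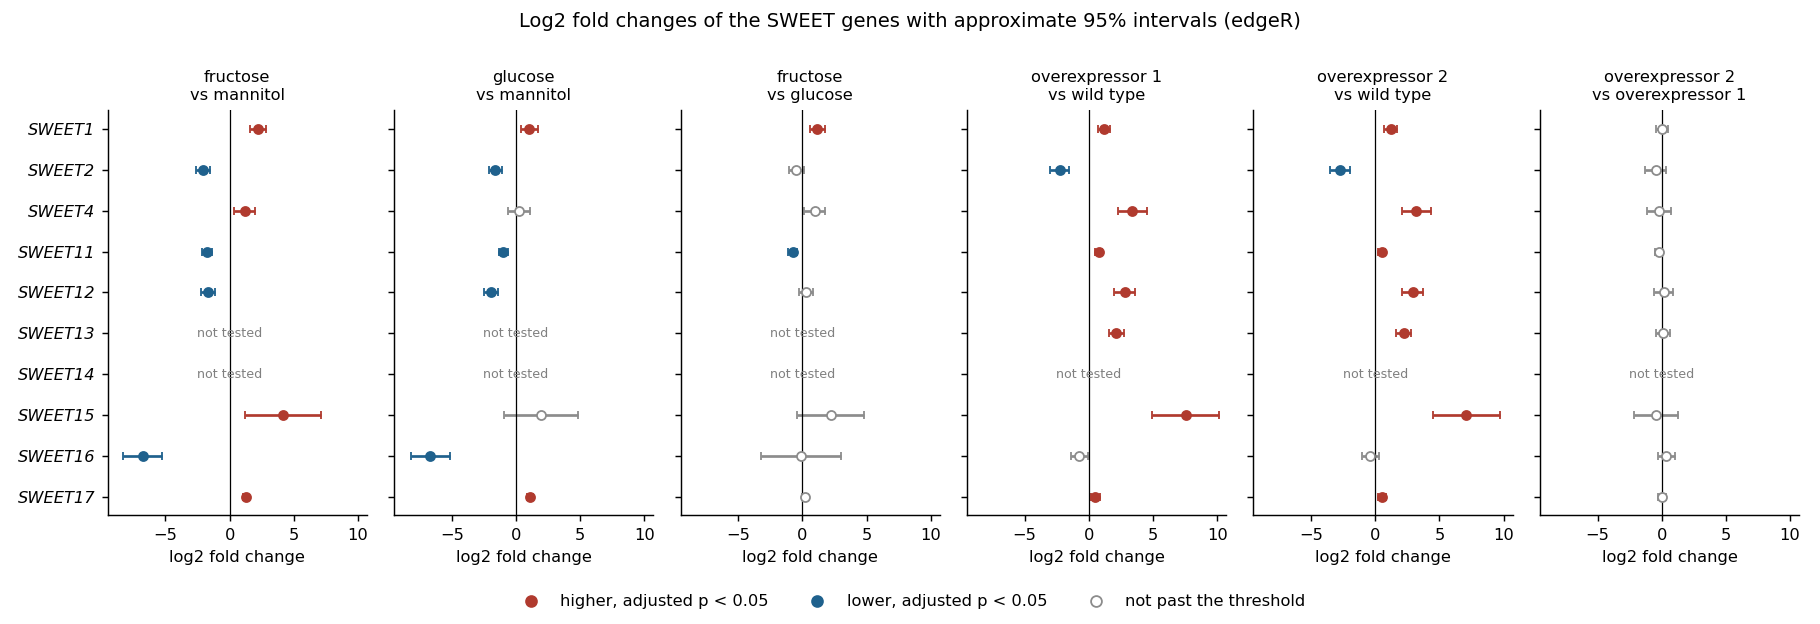
Log2 fold changes of the SWEET genes in the 6 comparisons, with approximate 95% intervals from edgeR; filled points passed an adjusted p of 0.05 (red higher, blue lower), open points did not, and genes that failed the filter on low counts are marked as not tested. SWEET16 has the lowest values in the disc comparisons with mannitol, SWEET15 the highest values in the leaf comparisons with wild type, and the last panel holds open points alone.

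Some members thus had a different sign in the 2 experiments, which were fitted apart and not compared by a test. SWEET11 and SWEET12 were lower in both sugars than in mannitol discs and higher in both overexpressors than in wild-type leaves. SWEET1 and SWEET17 were higher, and SWEET2 lower, in all 4 comparisons with mannitol or wild type.

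Of the 7 other SWEET genes, only SWEET5 passed the filter, and their summed level was 0.205 to 1.45 CPM over all libraries. SWEET5 was lower in glucose than in mannitol by -1.94 ± 0.44 (edgeR adjusted p = 0.00228) and higher in fructose than in glucose by 2.11 ± 0.43 (adjusted p = 0.00371), and it was not called in the other 4 comparisons. In glucose the 7 genes together summed to only 0.205 to 0.589 CPM. SWEET5 thus lay near the floor there and owed its place in the disc test mainly to the fructose and mannitol libraries.

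Calls among the proton-coupled sucrose symporters, most of which take up sucrose into cells, went in both directions in discs. Relative to mannitol, fructose discs had 3 higher and 2 lower of the 6 tested, and glucose discs 4 higher and 2 lower. Over all genes 66.1% were called in fructose (29.5% lower) and 74% in glucose (35.5% lower). In leaves, of 4 tested, 1 was higher in overexpressor 2 and 2 were higher in overexpressor 1, where 20.6% and 21.5% of all genes were called higher. SUC4, a vacuolar sucrose symporter, was higher in both lines, by 1.15 ± 0.20 in overexpressor 2 (edgeR adjusted p = 0.0017) and by 1.05 ± 0.20 in overexpressor 1 (adjusted p = 0.00222).

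The genes whose pattern over the 9 libraries of an experiment was most like that of each member were ranked by the root mean square difference of centred log2(CPM + 0.5). Among 17337 candidates in discs, the closest gene to SWEET17 was FIM5 (0.0732), to SWEET11 AT5G54170 (0.141), to SWEET12 AT5G08520 (0.121), to SWEET1 AT1G65920 (0.178), to SWEET4 PAP17 (0.143) and to SWEET2 SPX4 (0.155). SWEET15 was closest to LEA4-5, at a distance of 0.426, against a spread of SWEET15 itself of 2.17 on the same scale. Among 17070 candidates in leaves, the closest gene was AT1G78790 for SWEET17 (0.0565), iPGAM2 for SWEET11 (0.0682), AT3G57020 for SWEET1 (0.0801) and PWD for SWEET13 (0.126). NSP1 (0.131) was closest to SWEET12 and ZW9 (0.135) to SWEET4, and each of these was also among the 3 closest to the other member. SWEET2 was closest to AT5G02160 (0.192), and SWEET15 to AT3G28270 (0.395), and the abscisic acid response gene LTI65 (0.508) was also among its 3 closest.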

How the data were processed

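RNA was sequenced from 18 libraries of 2 experiments (leaf discs and leaves), 3 per group, per the labels. The deposited table holds read counts per gene for all 18, as the authors made them, with 0 columns of unknown sample. Per the submitters' processing notes, fastp (version not given), HISAT2 2.0.5, StringTie 1.3.3 and TAIR10 were used. Which tool counted the reads, and with which strand setting, is not given in the sources used here. Per the labels' protocols, the libraries were directional.

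Each experiment was fitted apart with edgeR 4.0.16 in R 4.3.3 (filterByExpr, TMM, robust quasi-likelihood F test, 1 mean per group, 6 residual degrees of freedom, no replicate block). Benjamini-Hochberg adjusted p-values under 0.05 over all genes tested were called. The fit was tested on simulated data. CPM are counts over TMM-scaled library sizes. Levels per kilobase used exon lengths of the RefSeq annotation of TAIR10.1, which matched 32548 of 32833 genes. Upstream windows and coding sequences were read from the same assembly. Coding sequence identity was computed with Biopython 1.88 in place of protein identity, as no protein table was used.

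All 10 members are named, and ERDL4 and SUC2 beside them; SWEET13 (discs) and SWEET14 failed the filter and are given as counts. From each list at most 2 called genes with the smallest p could be named, and up to 3 like genes per member of at least 5 CPM among genes of at least 1 CPM. The members and lists were chosen with earlier results of these data known. A count of 50 bases was the word length of the search for copies. Alternatives were DESeq2 1.42.0, limma-voom (limma 3.58.1), RLE or library-size scaling, other filters, other sample sets, a replicate block, merged near-identical pairs, a threshold of 0.01 on the adjusted p, and fits that each left out 1 library. The setting without 2 leaf libraries was added after the data were seen.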

Additional observations from a re-analysis of the deposited data

How the results depend on the processing

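Of 1046 SWEET fold changes recomputed under alternatives, 1020 kept their call or absence of a call, 18 lost a call, 8 gained one and 0 called values changed sign. SWEET genes higher in fructose than in mannitol numbered 2 in place of 4 at an adjusted p under 0.01, and 2 to 5 when each library was left out (2 without fructose replicate 3). Higher in fructose than in glucose were 2 with DESeq2, 3 with limma-voom, 2 with no filter, 2 with all 18 libraries in 1 fit, 2 with near-identical pairs merged, and 1 to 4 when each library was left out (4 without glucose replicate 2), against 1 in the fit reported. With no filter, edgeR called SWEET13 higher in fructose discs, by 4.01 over mannitol (adjusted p = 0.00384) and by 3.24 over glucose (adjusted p = 0.0127). Lower in fructose than in glucose were 1 to 2, and lower in overexpressor 1 than in wild type 1 to 2 (2 without wild-type replicate 2). Merging 3 pairs of close libraries (mannitol replicates 1 and 2, and replicates 2 and 3 of each overexpressor line) ended the fructose calls of SWEET4 (adjusted p = 0.0554) and SWEET15 (0.0594) and the calls of SWEET17 in overexpressor 2 (0.0539) and overexpressor 1 (0.119). Their chi-square per degree of freedom was 4.59 for the mannitol pair, 1.7 for the overexpressor 2 pair and 2.07 for the overexpressor 1 pair, above sampling noise but below the 13.8 to 66.1 of the other pairs. Over all genes, calls at an adjusted p under 0.01 numbered 5463 between fructose and glucose, 4600 in overexpressor 2 and 5053 in overexpressor 1. With pairs merged, overexpressor 1 had 5110 calls at an adjusted p under 0.05, against 8196 with all libraries. Between overexpressor 2 and overexpressor 1, 10 genes were called (2738 at an unadjusted p under 0.05), against 724 with DESeq2, 25 with no filter, 91 with the 2 groups alone, 164 with all 18 libraries in 1 fit, 0 with pairs merged, 1 at an adjusted p under 0.01 and 0 to 492 when each library was left out. Without wild-type replicate 2 and overexpressor 1 replicate 1 there were 817 such genes, and 1 SWEET gene (SWEET15, -0.99) was called lower. That setting leaves overexpressor 1 with its pair of close libraries, so its spread may be technical, and with pairs merged SWEET15 differed by -0.05 (adjusted p = 0.995). Scaling by library size alone raised the median fold change of all genes by 0.25 in fructose, 0.20 in glucose, 0.27 in overexpressor 2 and 0.21 in overexpressor 1. Same-number correlations ran between -0.426 and 0.159, and 10 of 36 library comparisons were best with their own number, so no pairing by replicate number was seen. The labels do not say whether these numbers mark paired samples, and with 3 libraries per group the correlations cannot decide it. With a replicate block the count between the 2 lines was 1 gene, and no SWEET count changed.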
